A study of Mus musculus with 8 samples.

Results

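The 41 genes described here mark a stratified squamous epithelium (23 genes) and striated muscle (18 genes), out of 24481 genes in the table. They were selected on measured values: they were picked because they stood high in 2 of the 4 sham samples, sham replicates 2 and 3. Their height in those samples, and any difference between the groups that includes those samples, therefore comes from the choice and is given as a description. Each of the 41 symbols had a row, and each passed the filter on low values used for the tests, a mean linear value of at least 10 over the 8 samples.

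Whole-transcriptome sequencing was done on stomach RNA from C57BL/6J mice, female and wild-type in both groups, with no age given. There were 4 samples from mice 3 days after a sham operation and 4 from mice 3 days after adrenalectomy, which takes out the adrenals, the source of glucocorticoids. The labels name no transgene, drug or other agent for either group. The labels do not say which regions of the stomach were taken, whether any oesophagus was attached, or whether the samples were separate animals, so the p-values speak only to the variation among these 8 samples, which may be technical.

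As background, the mouse stomach is lined by a keratinised stratified squamous epithelium in its upper part, the forestomach, and by glands in the rest. Squamous epithelium renews from a basal layer that holds keratins 5 and 14, and its cells change to other keratins and build a cornified envelope as they move outwards. The muscle of the stomach wall is smooth, while in the mouse the muscle coat of the oesophagus is striated, and the oesophagus is also lined by squamous epithelium. Diaphragm and body wall hold striated muscle without such an epithelium. In bulk RNA, fewer cells of a type and less RNA per cell cannot be told apart.

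Sequence upstream of a few members is shown first, because letters that recur in promoters of either class are one property of these genes that their selection did not use. The RefSeq promoter table on GRCm38.p6 held 27 of the 41 members, 13 squamous and 14 muscle. The 120 bases before the most upstream annotated start are printed 5′ to 3′ on the gene's strand. Capitals mark matches to a TATA box or AP-1 in the cornified envelope gene Lor, the secreted Krtdap and the envelope-associated Rptn, and to a TATA box, MCAT, CArG box or E-box in the skeletal alpha-actin gene Acta1 and the fast myosin light chain gene Mylpf. In Rptn the capitals also cover a MEF2 match that overlaps the TATA box.
Lor, chr3:92083143-92083262, minus strand: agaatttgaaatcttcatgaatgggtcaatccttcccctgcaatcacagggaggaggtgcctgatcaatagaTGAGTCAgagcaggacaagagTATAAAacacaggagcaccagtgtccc
Krtdap, chr7:30787785-30787904, plus strand: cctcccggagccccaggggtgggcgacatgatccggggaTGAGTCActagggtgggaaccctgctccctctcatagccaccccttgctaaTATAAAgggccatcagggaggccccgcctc
Rptn, chr3:93393579-93393698, plus strand: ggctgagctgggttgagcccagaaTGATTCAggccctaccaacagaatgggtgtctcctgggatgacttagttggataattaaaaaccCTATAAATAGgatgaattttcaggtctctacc
Acta1, chr8:123894776-123894895, minus strand: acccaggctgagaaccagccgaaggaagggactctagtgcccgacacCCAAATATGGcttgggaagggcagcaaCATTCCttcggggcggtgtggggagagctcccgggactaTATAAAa
Mylpf, chr7:127211488-127211607, plus strand: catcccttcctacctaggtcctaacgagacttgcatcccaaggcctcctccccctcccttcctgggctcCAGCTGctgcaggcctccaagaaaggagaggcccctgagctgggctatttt

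Over the 250 bases before the start, AP-1 (TGANTCA, both strands) was found in 9 of 13 squamous promoters and in 0 of 14 muscle promoters, against 6.85% of all 27025 promoters in the table. The TATA box (TATAAA, printed strand only) was found in 8 of 13 squamous and 3 of 14 muscle promoters, against 8.13% of all. The E-box (CANNTG, both strands) was found in 9 of 13 squamous and 12 of 14 muscle promoters, but also in 66.1% of all promoters. MCAT (CATTCC, both strands) was in 3 promoters of each class, against 12.6% of all. MEF2 was matched in 1 squamous and 3 muscle promoters, against 3.03% of all, and the CArG box in 0 and 2, against 1.41%. These are letter matches and not measured binding, the squamous promoters include neighbouring genes of shared descent, and no test was made.

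Values below are log2 normalized values as the authors deposited them, listed for replicates 1 to 4 of each group. On this scale the spread shrank at low values: the median SD over the 8 samples was 0.024 among 510 genes with a mean up to 4, and 0.089 among 3172 genes between 8 and 10. Differences of low genes are therefore understated, and values near 4 to 7 do not show how little of a transcript was present. The table holds no counts, so depth is unknown.

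The squamous genes were spread over all 8 samples, while the muscle genes were high in sham replicates 2 and 3 and close to one level elsewhere. The mean log2 value over the 23 squamous genes was 11.55, 13.14, 13.16 and 12.16 in the sham samples and 11.94, 12.37, 10.82 and 11.71 after adrenalectomy. The mean over the 18 muscle genes was 6.99, 9.08, 9.09 and 7.19 in the sham samples and 6.99, 7.01, 6.93 and 6.97 after adrenalectomy. Sham replicates 2 and 3 were thus the highest for both classes, and were nearly equal to each other. Among the other 6 samples the squamous mean ranged over 1.55 and the muscle mean over 0.26. Adrenalectomy replicate 2 was next highest for the squamous genes, with a muscle mean of 7.01, while sham replicate 4 was next highest for the muscle genes. Because 2 samples stood apart from the other 6 on the muscle mean, no correlation over the 8 samples is given. Within the other 6 samples both means were lowest in adrenalectomy replicate 3 and highest in sham replicate 4 and adrenalectomy replicate 2, with a Pearson r of 0.61 and a Spearman rho of 0.89, as a description of means over selected genes. Without the 2 samples farthest from the median squamous mean, adrenalectomy replicates 2 and 3, r was 0.81 over 4 samples. The order of these 6 samples by mean log2 value was thus alike for both classes, while the size of the differences was not. For the muscle genes that order depended on the score. By their median log2 value, adrenalectomy replicate 2 (6.79) was below adrenalectomy replicate 3 (6.86), and sham replicate 1 was lowest (6.76). By their share of summed linear values, sham replicate 1 was highest of the 6 (0.00622%).

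**Figure D1:**
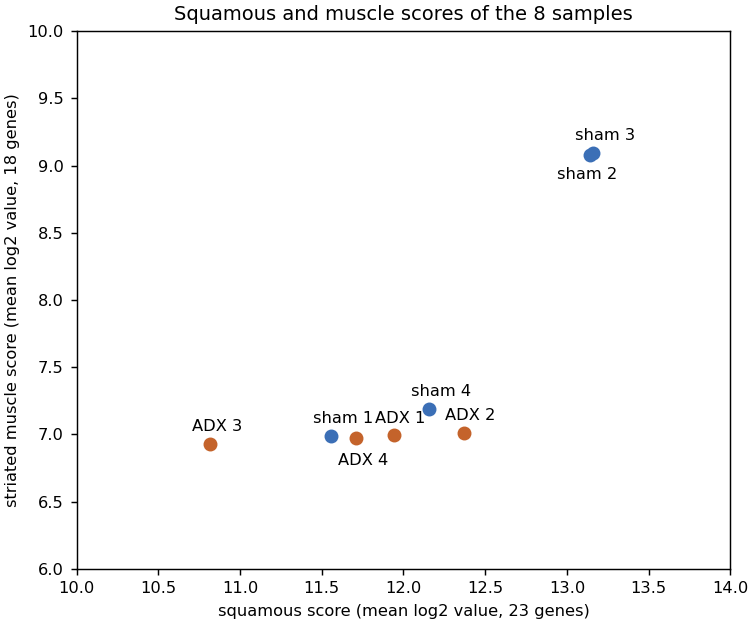
Mean log2 value of the 18 striated muscle genes (vertical axis) against that of the 23 squamous genes (horizontal axis), 1 point per sample (blue sham, orange ADX, adrenalectomy). Sham replicates 2 and 3 lie together at the top right near 13.1 and 9.1, and the other 6 samples run from 10.82 to 12.37 across while staying between 6.93 and 7.19 in height.

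As a share of the summed linear values of all genes, squamous members held 0.182, 0.530, 0.542 and 0.253% in the sham samples and 0.225, 0.306, 0.123 and 0.193% after adrenalectomy. Muscle members held 0.0246 and 0.0255% in sham replicates 2 and 3, and between 0.00546 and 0.00622% in the other 6 samples. On either scale the squamous genes separated the other 6 samples and the muscle genes did so far less. The muscle share in those samples leans on Tnni2 and Ckm, whose means there, 11.20 and 9.69 (log2), were the highest of the muscle members. It is thus not a separate measure of most muscle genes.

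Gene by gene, sham replicates 2 and 3 were the 2 highest samples for 22 of 23 squamous genes and 18 of 18 muscle genes, which the selection fixes for most of them. Below them the means of both classes ranked the samples alike, as given above, but single genes differed in which sample came next. Adrenalectomy replicate 2 was highest of the other 6 samples for 16 squamous genes and for 0 muscle genes, and sham replicate 4 for 5 squamous and 11 muscle genes. Adrenalectomy replicate 3 was lowest of all 8 samples for 21 of 23 squamous genes but for 6 of 18 muscle genes. The range over the other 6 samples, which the selection did not use, had a median of 1.89 over squamous genes (0.27 to 2.66) and of 0.31 over muscle genes (0.013 to 1.49). It passed 1, a doubling, in 17 of 23 squamous and 1 of 18 muscle genes, against 3.47% of all 16889 tested genes, whose median range was 0.17. The classes differed in level: the mean log2 value over these 6 samples was 11.76 for squamous and 7.01 for muscle genes. The scale narrows spread at low values, so neither the ranges of the classes nor the share of all genes are matched for level.

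**Figure D2:**
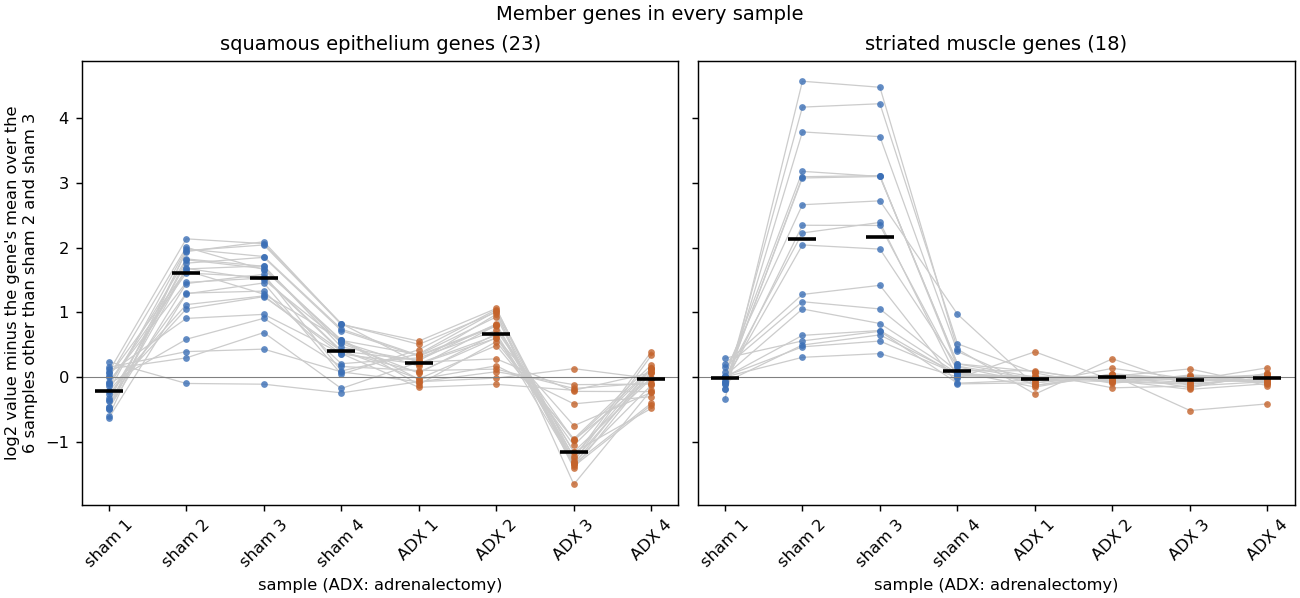
Log2 value of each gene minus its own mean over the 6 samples other than sham replicates 2 and 3, in every sample (left 23 squamous genes, right 18 muscle genes). Dots are genes (blue sham, orange adrenalectomy), grey lines join 1 gene across samples, and black bars are medians; most squamous genes also lie lower in adrenalectomy replicate 3 and higher in adrenalectomy replicate 2, where the muscle genes stay near 0.

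The basal layer was represented by 4 genes. Krt5, a keratin of dividing basal cells, was at 12.09, 14.02, 14.16 and 12.67 in the sham samples and at 12.93, 13.60, 11.27 and 12.91 after adrenalectomy. Its partner Krt14 was at 11.17, 13.10, 13.26 and 11.85, and at 12.23, 12.85, 10.55 and 12.20. For both keratins adrenalectomy replicate 2 came within 0.43 and 0.24 of the lower of the 2 high sham samples, and sham replicate 1 was lower than 3 of the 4 adrenalectomy samples. Trp63, the transcription factor that maintains stratified epithelia, was at 8.91, 10.58, 10.61 and 9.48, and at 9.57, 10.0004, 8.30 and 9.41. Krt15, another basal keratin, was at 9.91, 11.61, 11.55 and 10.41, and at 9.97, 10.49, 9.05 and 10.19. The groups overlapped for each of these genes.

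The layers above the basal one were represented by 6 keratins. Krt13, a keratin of internal squamous linings such as the oesophagus and forestomach, was at 14.29, 16.26, 16.15 and 14.96 in sham samples and 14.50, 15.11, 13.21 and 14.56 after adrenalectomy. Its partner Krt4 was at 13.69, 15.69, 15.35 and 14.26, and at 13.57, 14.24, 12.71 and 13.67. Both were at their lowest in adrenalectomy replicate 3, more than 1 below sham replicate 1 for Krt13 and close to that for Krt4. Krt1, a keratin of cornifying epithelium, was at 13.59, 15.99, 16.14 and 14.86, and at 14.55, 15.05, 12.39 and 13.85, and its partner Krt10 at 12.88, 15.45, 15.53 and 14.31, and at 14.05, 14.55, 12.11 and 13.06. Krt1 had the widest range over the other 6 samples of the 41 genes, 2.66. Krt6a and Krt6b, keratins of activated keratinocytes, ranged from 10.08 to 12.39 and from 10.11 to 12.64, and because these copies are nearly identical the division of reads between them is uncertain.

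Differences between keratins varied less between samples than each keratin did; the pairs compared were chosen after the values were seen. Log2 values of Krt5 exceeded those of Krt14 by 0.82 to 0.93 in the sham samples and by 0.70 to 0.74 after adrenalectomy, without overlap. No share of all gene pairs without overlap is given, and the sham samples include the 2 used in the selection, so nothing is read from it. Krt1 minus Krt10 was 0.54 to 0.71 in the sham samples and 0.27 to 0.79 after adrenalectomy. Krt10 minus Krt14 was 1.71 to 2.46 and 0.86 to 1.82, so both of these differences overlapped. Krt1 minus Krt5, a cornifying against a basal keratin, was 1.50 to 2.19 in the sham samples and 0.94 to 1.62 after adrenalectomy, with overlap. Krt4 minus Krt13 was -0.80 to -0.57 and -0.92 to -0.50. These differences of log2 values take no account of transcript length, and no test was made on them.

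Genes of the cornified envelope and of keratinocyte secretion were mostly, like the keratins, lowest in adrenalectomy replicate 3. Lor, the main protein of the cornified envelope, was at 12.90, 15.22, 15.08 and 13.97 in the sham samples and at 13.75, 14.33, 12.00 and 13.48 after adrenalectomy. Rptn, an envelope-associated protein, was at 13.16, 15.22, 15.14 and 13.91, and at 13.29, 13.73, 11.73 and 12.68. Sham replicate 4 stood above all 4 adrenalectomy samples for Rptn, and adrenalectomy replicate 2 above sham replicate 4 for Lor. Sprr3, a small proline-rich envelope precursor, was at 12.35, 14.48, 14.57 and 13.43, and at 13.04, 13.50, 11.38 and 12.59. Krtdap, a small protein secreted by differentiating keratinocytes, was at 12.06, 14.19, 14.24 and 12.99, and at 12.77, 13.49, 11.17 and 12.66. Sbsn and Dmkn, secreted proteins whose genes lie beside Krtdap, were highest in sham replicate 2 and lowest in adrenalectomy replicate 3, with ranges of 10.49 to 13.32 and 10.78 to 13.92. Ivl, involucrin, another envelope protein, ranged from 6.63 to 7.71.

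The paralogous envelope genes Sprr1a and Sprr1b differed from each other. Sprr1b was lowest in adrenalectomy replicate 3, while Sprr1a was lowest in adrenalectomy replicate 4, by a small margin. Sprr1a was at 13.43, 13.60, 13.99 and 13.12 in the sham samples and at 13.53, 13.58, 13.08 and 13.08 after adrenalectomy, so sham replicate 2 exceeded adrenalectomy replicate 2 by 0.015. Sprr1b was at 6.88, 7.73, 7.79 and 7.18, and at 6.66, 6.71, 6.62 and 6.89, and sham replicates 2, 3 and 4 were above all 4 adrenalectomy samples. Of these, sham replicates 2 and 3 were picked as high. Reads may be split between such related copies.

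Among the genes of cell junctions, the desmogleins of squamous cells, like the keratins, were highest in sham replicates 2 and 3 and lowest in adrenalectomy replicate 3, while more widely expressed genes varied little. Dsg3, a desmoglein of lower layers and mucosa, was at 8.93, 10.47, 10.54 and 9.40 in the sham samples and at 9.08, 9.61, 8.25 and 8.76 after adrenalectomy. Dsg1a, of upper layers, was at 8.07, 9.71, 9.34 and 8.64, and at 8.03, 8.23, 7.65 and 7.76. Dsc2, a desmocollin that simple epithelia also express, was at 15.12, 14.78, 14.77 and 14.64, and at 14.81, 14.86, 15.01 and 14.86, and was the 1 squamous gene not highest in sham replicates 2 and 3. Its correlation with the mean of the squamous genes over the 8 samples was -0.62, as a description. Perp, a desmosomal protein, was at 14.50, 14.74, 14.78 and 14.43, and at 14.28, 14.43, 14.23 and 14.24. Dsc2 and Perp spanned 0.48 and 0.27 over the 6 samples other than sham replicates 2 and 3. These values mark the edge of the selection: Perp stood 0.41 higher in sham replicates 2 and 3 than in the other 6 samples, Dsc2 differed by -0.11, and Rptn, the squamous gene with the largest such gap, by 2.10.

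Striated muscle contracts when calcium binds troponin on the actin thin filament and lets myosin pull on it; fast and slow fibres use different gene copies for most of these proteins. Acta1, skeletal alpha-actin, was at 7.73, 12.65, 12.55 and 8.50 in the sham samples and at 7.81, 8.35, 7.93 and 8.12 after adrenalectomy. Its mean in sham replicates 2 and 3 was 23.1 times that of the other 6 samples on the deposited scale (log2 difference 4.53), the widest gap of the 41 genes. Tnnc2, the calcium-binding troponin of fast fibres, was at 6.06, 9.22, 9.25 and 6.35, and at 6.23, 6.07, 6.03 and 6.13. For Acta1 and Tnnc2 sham replicate 4 was next, but far nearer to the low samples than to the high ones.

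Tnnt3, fast troponin T, was the muscle gene that varied most among the other 6 samples, over 1.49. It was at 8.02, 10.61, 10.67 and 8.92 in the sham samples and at 7.82, 7.97, 7.43 and 7.53 after adrenalectomy, so each sham sample was above each adrenalectomy sample. Sham replicates 2 and 3 were picked as high, and sham replicate 1 was only narrowly above adrenalectomy replicate 2. No share of all genes with such an order is given, so nothing is read from it. Tnni2, fast troponin I, was at 11.49, 11.76, 11.90 and 11.10, and at 11.15, 11.13, 11.21 and 11.11. Unlike Tnnc2, Tnni2 was 1.55 times higher in sham replicates 2 and 3, with most of its level present in every sample. The slow-fibre copies Tnnt1 and Tnni1 ranged over 6.59 to 7.33 and 4.92 to 5.52.

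Myosin genes also differed in how far they stood apart. Myh2, a fast myosin heavy chain, was at 6.40, 10.38, 10.31 and 6.98 in the sham samples and at 6.46, 6.63, 6.42 and 6.65 after adrenalectomy. Mylpf, the regulatory light chain of fast myosin, was at 7.88, 9.99, 9.93 and 8.11, and at 7.92, 7.97, 7.92 and 7.88. Myl1, the fast essential light chain, was at 6.64, 9.09, 9.09 and 6.84, and at 6.84, 6.65, 6.78 and 6.73. Myh4, the heavy chain of the fastest fibres, was at 4.51 to 5.24. The low 6 samples were within 0.59 of each other for Myh2 and within 0.24 for Mylpf.

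Lengths let the heavy chain copies be compared with each other as linear values per kb of transcript. Myh8, the perinatal heavy chain, chosen after its values were seen, reached 666 and 719 in sham replicates 2 and 3, against 15.1 to 37.8 in the other 6 samples. Myh1, another fast heavy chain, reached 258 and 249 against 13.9 to 21.2, and Myh2 219 and 208 against 13.8 to 20.8. Myh4 was at 5.95 and 6.27 per kb in sham replicates 2 and 3, below all of these. Myh7, the heavy chain of slow fibres and heart, was at 20.5 and 20.01 per kb there, inside its range of 16.9 to 20.7 in the other samples. Per kb, Tnnc2 reached 855 and 868 in sham replicates 2 and 3, while Tnnc1, the slow and cardiac troponin C, also chosen after its values were seen, stayed at 21.5 and 20.8 beside 20.03 to 21.2 elsewhere. The mean log2 value of Tnnc1 was 3.90, where the scale leaves little spread, so nothing is read from its flat values. Not all slow-fibre genes were flat: Tnnt1 and Tnni1 stood 0.57 and 0.51 higher (log2) in sham replicates 2 and 3 than in the other 6 samples. The heavy chain genes are close copies in 1 cluster, so the division of reads between them is uncertain.

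**Figure D3:**
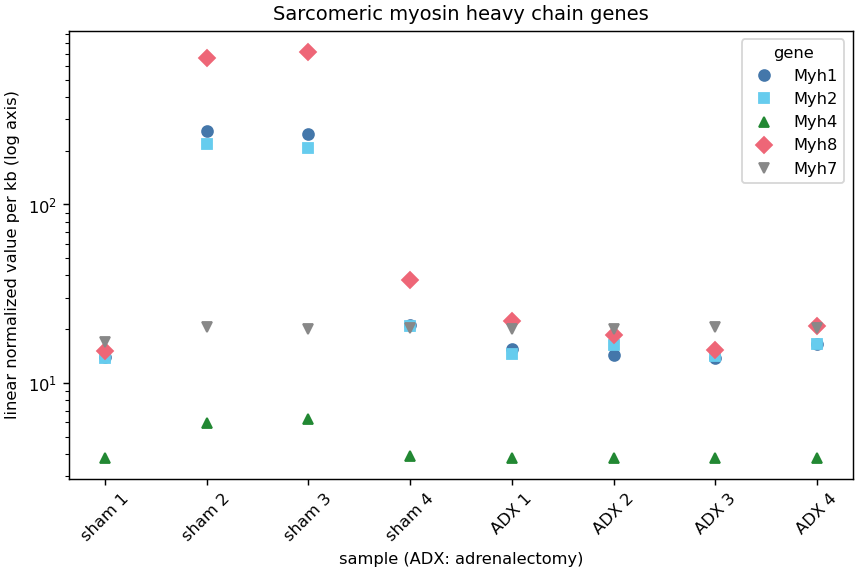
Linear normalized value per kb of transcript (log axis) of 5 sarcomeric myosin heavy chain genes in the 8 samples (ADX, adrenalectomy). Myh8, Myh1 and Myh2 stand at 208 to 719 in sham replicates 2 and 3 and at 13.8 to 37.8 in the other samples, while Myh7 stays between 16.9 and 20.7.

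Genes of calcium handling and energy supply were Atp2a1, the calcium pump of fast fibres, Pvalb, the calcium buffer of fast fibres, Ckm, muscle creatine kinase, and Mb, myoglobin. Atp2a1 was at 6.56, 9.74, 9.67 and 6.77 in the sham samples and at 6.56, 6.50, 6.46 and 6.53 after adrenalectomy. Mb was at 6.89, 10.09, 10.11 and 7.15, and at 6.89, 7.13, 6.96 and 6.94. Both stood more than 8 times higher in sham replicates 2 and 3 than in the other 6 samples, by 8.82 and 8.61. Ckm, at 9.84, 10.86, 10.75 and 9.78 and at 9.54, 9.74, 9.66 and 9.61, kept a level in all samples and differed by 2.15 times. Pvalb was at 3.73 to 3.74 in the other 6 samples and at 4.04 and 4.09 in these 2.

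Of the proteins that hold the sarcomere together, Ttn, the giant spring protein titin, was at 6.89, 11.25, 11.31 and 7.59 in the sham samples and at 7.14, 6.91, 6.94 and 7.01 after adrenalectomy. Neb, nebulin of the thin filament, was at 7.68, 9.92, 10.08 and 7.67, and at 8.08, 7.64, 7.50 and 7.59. For Ttn sham replicate 4 was the next sample, and for Neb it was adrenalectomy replicate 1. Actn2, an alpha-actinin of the Z-disc, was at 8.05, 9.12, 9.26 and 7.74, and at 7.75, 7.85, 7.97 and 7.71. Actn3, its fast-fibre relative, ranged from 5.74 to 6.88. Sham replicates 2 and 3 stood above all other samples for all 4 genes.

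**Figure D4:**
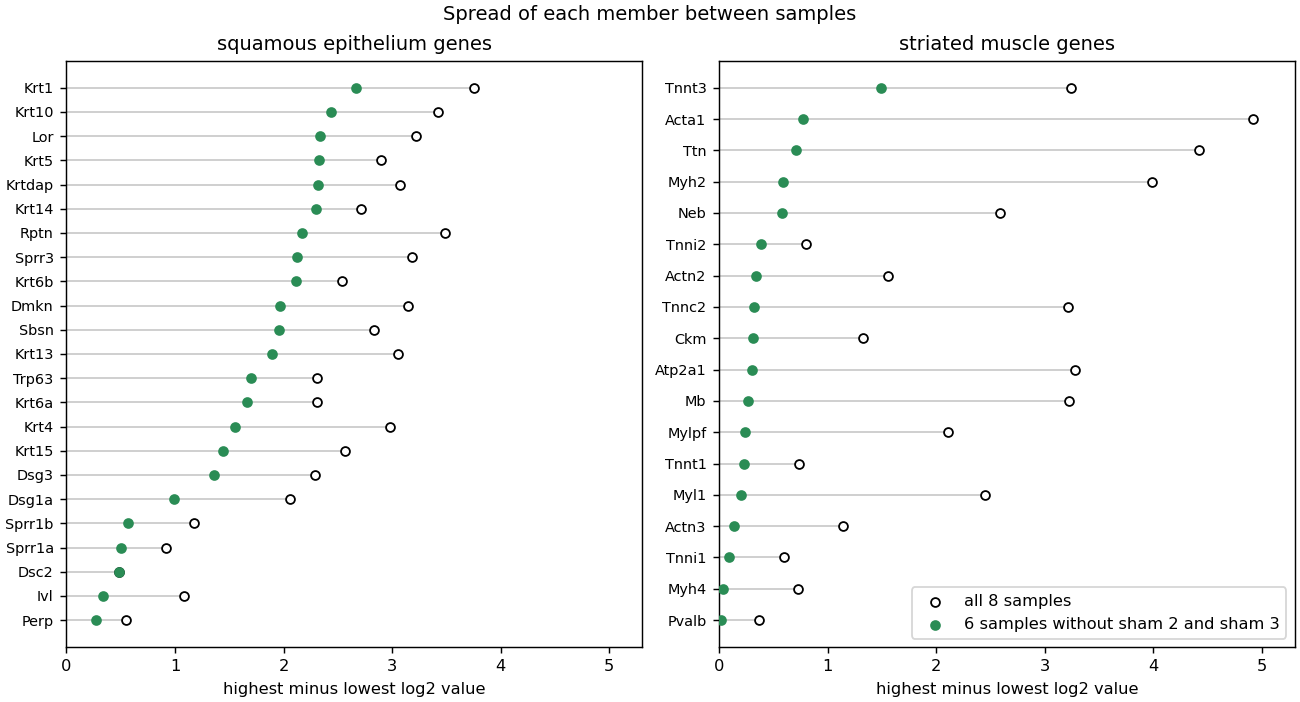
Range (highest minus lowest log2 value) of each of the 23 squamous genes (left) and 18 muscle genes (right), over all 8 samples (open circles) and over the 6 samples without sham replicates 2 and 3 (green). Most squamous genes keep a range above 1 without those samples (17 of 23), while 1 of 18 muscle genes does (Tnnt3, 1.49).

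Adrenalectomy was set against sham for every tested gene with limma, adjusted by Benjamini-Hochberg. The means were lower after adrenalectomy for 22 of 23 squamous and 18 of 18 muscle genes, with median log2 differences of -0.90 and -1.10, beside -0.00088 over all tested genes. Of the 41 members 0 passed an adjusted p of 0.05, beside 1.71% of all tested genes (289 of 16889), and 8 members, all lower, were under an unadjusted p of 0.05, beside 3245 of all genes. Since the selection used these sham samples, nothing is read from these counts. Krt5 had a sham mean of 13.24 ± 1.02 and an adrenalectomy mean of 12.68 ± 0.99 (SD, n = 4 each), a log2 difference of -0.56 ± 0.61 (SE), and Acta1 had 10.36 ± 2.61 and 8.05 ± 0.24, a difference of -2.31 ± 1.12. Without sham replicate 1, the lowest sham sample for most squamous genes, 633 of 16889 genes passed the limma test, or 3.75%, among them 3 members. Sham replicates 2 and 3, used in the selection, make up most of the sham group in that setting, so nothing is read from these 3 either: Tnnt3 (log2 difference -2.38 ± 0.42, SE, adjusted p = 0.0354), Sprr1b (-0.85 ± 0.15, adjusted p = 0.0347) and Dsg1a (-1.31 ± 0.26, adjusted p = 0.0414).

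The same comparison was made on the 6 samples that the selection did not use, which leaves sham replicates 1 and 4 against the 4 adrenalectomy samples. Leaving out the samples picked as high lowers the sham mean by construction. Of the 41 members 0 passed the adjusted threshold with limma, beside 0.0118% of all tested genes (2 of 16889), and 4 were under an unadjusted p of 0.05, beside 2138 of all. The median log2 difference was -0.16 over squamous genes and -0.07 over muscle genes, with 18 lower and 5 higher among the former and 14 lower and 4 higher among the latter. Krt5 then stood 0.30 ± 0.62 higher after adrenalectomy, Krt14 0.45 ± 0.62 and Trp63 0.13 ± 0.46, while Krt15 had a difference of -0.24 ± 0.40, Krt4 a difference of -0.43 ± 0.41 and Rptn of -0.68 ± 0.56 (each log2, SE). By layer, the median difference was 0.21 over the 4 basal genes, -0.21 over the 6 keratins of layers above, -0.20 over the 4 junction genes and -0.16 over the 9 envelope and secreted genes. The differences of the 4 basal genes were smaller than their standard errors. Tnnt3 had a difference of -0.78 ± 0.27 in these samples, and Acta1 of -0.06 ± 0.24.

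Other genes of both tissues are set beside the members as a description. Their lists were put together with earlier results of these data known, so they cannot test how far the members stand for their class. Of 48 other squamous genes 47 were tested, 0 passed in either direction in the limma fit of all 8 samples (5 under an unadjusted p of 0.05), 33 had sham replicates 2 and 3 as the 2 highest, and 19 stood more than 1 higher there. Of 42 other striated muscle genes 41 were tested, 0 passed (4 unadjusted), 36 had those samples as the 2 highest, and 13 stood more than 1 higher. Over all tested genes 145 stood more than 1 higher in those samples, or 0.859%. Of these, 30 were members and 38 were in these lists or the lists of epidermis and slow fibre genes. In the same limma fit 19.2% of all tested genes were under an unadjusted p of 0.05. For genes with those samples as the 2 highest no share of all genes is given, so these counts have no background. Lists of 11 slow fibre, 11 heart muscle, 10 neuromuscular junction and 14 muscle progenitor genes had 10, 8, 6 and 8 tested, 0 passing (0, 2, 2 and 3 unadjusted), and 1, 0, 0 and 0 that stood more than 1 higher. Of the heart list, 4 genes had sham replicates 2 and 3 as the 2 highest samples. Tnnt2, cardiac troponin T, was at 8.56 and 8.45 there and at 7.42 to 7.94 in the other 6 samples, Actc1, cardiac alpha-actin, stood 0.41 higher there, and Myl7, an atrial light chain, 0.33 higher. The 2 heart list genes of highest mean did not follow them. Tnni3 differed by -0.13, and Ryr2 was lower in sham replicate 3 (9.73) than in sham replicate 1 (9.84). The median difference over the heart list was 0.031. The heart marker Myh6 varied little, at 4.62 to 4.68 in all 8 samples. Nppa, at 2.56 to 2.61, was under the filter on low values, so nothing is read from its small spread. Slow fibre genes were mixed. Their list holds the members Tnnt1 and Tnni1, and it shares Tnnc1 and Myoz2 with the list of other striated muscle genes. Myl3, a light chain of slow fibres and heart, was at 8.32 and 8.36 in sham replicates 2 and 3 and at 5.75 to 5.97 in the others, and Myoz2, a Z-disc protein chosen after its values were seen, stood 0.98 higher there.

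Of 14 genes of epidermis and hair follicle 13 had a row and 7 were tested, with 0 passing (1 unadjusted) and 5 more than 1 higher in sham replicates 2 and 3. Asprv1, a protease of cornifying cells, was at 12.07, 14.27, 14.18 and 12.99 in the sham samples and at 12.67, 13.18, 11.13 and 12.07 after adrenalectomy. Hrnr, hornerin, was at 10.41, 12.46, 12.25 and 11.12, and at 10.39, 10.75, 9.12 and 9.62. The markers of skin itself, Krt2 and Krt77, were at -0.10 to -0.09 and at 1.33 to 1.35. Both were under the filter on low values, so whether they follow the squamous genes cannot be read from them.

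Genes most like each class were ranked by Pearson correlation over the 8 samples with the mean of the members, among 459 tested genes that were not members and had an SD of at least 0.5. For the squamous mean they were Lce3c, Pkp1, Serpinb3a, Alox12b, Calml3, Lypd3, Lce3f and Lce3e (0.996 to 0.998), and 103 genes exceeded 0.95. They include Pkp1, a desmosomal plaque protein at 9.74 to 12.38, and Alox12b, a lipoxygenase of the epidermal barrier at 8.24 to 10.65. For the muscle mean they included Myom2, Myl3, Mybpc1, Xirp2, Myh1, Myot and Ryr1 (0.997 to 0.999), and 16 genes exceeded 0.95. The latter correlations rest on the 2 high samples. Ryr1, the calcium release channel of skeletal muscle, was at 7.73 and 7.68 in those samples and at 5.96 to 6.06 in the others.

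Several members lie side by side in the genome: with no protein-coding gene between them are Krt13 and Krt15, Krt6b with Krt6a and Krt5, Sprr1b with Sprr3 and Sprr1a, and Sbsn with Dmkn and Krtdap. Neighbours are not independent observations. Neighbours also differed: Sprr3 spanned 2.12 over the 6 samples not used in the selection and Sprr1a 0.51.

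Markers of the rest of the stomach were present in every sample, with Atp4a, the acid pump of parietal cells, at 19.50 to 19.78, Pgc, a pepsinogen, at 22.97 to 23.59 and Gkn1, a surface gastrokine, at 21.36 to 21.65. The mean over 20 smooth muscle genes was 13.76, 13.87, 13.83 and 13.69 in the sham samples and 13.59, 13.62, 13.66 and 13.59 after adrenalectomy, so sham replicates 2 and 3 were again the 2 highest, by far less than for the striated genes. Of the 20 genes 11 had those samples as the 2 highest, and 0 stood more than 1 higher there. All 20 had a lower mean after adrenalectomy over the 8 samples, beside 8522 of 16889 tested genes. With limma 12 of the 20 were under an unadjusted p of 0.05, beside 19.2% of all tested genes. In the limma fit of all 8 samples, sham replicates 2 and 3 included, 3 of the 20 passed and fell, beside 1.71% of all tested genes: Tagln (-0.20), Myh11 (-0.27) and Tpm2 (-0.19). Without those samples their log2 differences were -0.21, -0.22 and -0.17, and none of the 3 passed (adjusted p = 0.23, 0.25 and 0.22 with limma, each under an unadjusted p of 0.05); the replicate block left 4 of all genes passing. The mean over 12 liver genes was 9.46, 9.51, 9.51 and 11.73 in the sham samples and 14.52, 11.87, 10.70 and 9.58 after adrenalectomy, so RNA of liver genes varied between samples in an order other than that of either class. The part of unequal tissue content in the group differences was not tested.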

How the data were processed

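RNA from 8 mouse stomach samples, 4 sham and 4 adrenalectomy, was sequenced. The submitters' processing notes name mouse build mm9 and the tools DESeq2, featureCounts, STAR and Trim Galore, without versions. The authors deposited 1 table of log2 normalized values with 24507 rows named by gene symbol; its transformation, annotation and strand setting were not given in the sources used here. Normalization between samples leaves levels relative, so a gain in one tissue's RNA lowers the others' share, and no length correction was made.

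Of the value columns, 8 were used and 8 others, of samples not in this series, were not used here. A total of 26 rows whose names had become dates were left out. Genes with a mean linear value of at least 10 (16889, with 7592 left out) were tested in R 4.3.3 with limma 3.58.1 (intensity trend, group as the only term, two-sided, Benjamini-Hochberg over all tested genes, threshold 0.05), a fit tested on simulated data. Log2 differences are adrenalectomy minus sham. Scores are mean log2 values over all members. Tables and plots were made with Python 3.11.15, pandas 2.3.3 and matplotlib 3.10.9.

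Values per kb divide the linear value by the length of the longest GENCODE M21 transcript. Members and gene lists were chosen with earlier results of these data known. All members could be named; of each other list, up to 5 genes of highest mean and any gene past the threshold; and the 8 genes most correlated with each score, of which 1 is not reported here. Markers of heart, epidermis and glandular stomach could be named too, and Myh8, Tnnc1 and Myoz2 fall outside the rule. Tried alternatives were other filters, no trend, robust moderation, median centring, a replicate block and left-out samples. Gene order came from RefSeq on GRCm38.p6, and no gene coordinates were converted between builds. The labels do not say that same-numbered samples of the groups were paired.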

Additional observations from a re-analysis of the deposited data

How the results depend on the processing

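No alternative without a left-out sample took a member past the limma threshold. The count was 0 of 37 tested members with a minimum mean linear value of 100, and 0 of 41 in each other alternative. Under an unadjusted p of 0.05 with limma were 6 to 13 members, beside 15.0 to 21.1% of all tested genes. Sham replicates 2 and 3, used in the selection, are in all of these settings, so nothing is read from these counts. Against 289 genes passing among all tested, 170 passed with no filter, 156 with samples centred on their median, 2 without sham replicates 2 and 3, and 0 without those and adrenalectomy replicate 1, a setting chosen after seeing the data, where 1822 were under an unadjusted p of 0.05. Leaving out 1 sample gave 27 to 633 genes and 0 to 3 members, the 633 and the 3 coming without sham replicate 1. With the replicate number as a block 4 genes and 0 members passed. Correlations of same-numbered samples were -0.29, 0.45, -0.12 and -0.63, beside -0.46 to 0.63 for samples of different number. The labels name no pairing, and these correlations cannot show whether there was one. The squamous group difference of -0.79 kept its direction, at -1.11 to -0.50 with 1 sample left out and -0.15 without sham replicates 2 and 3. The muscle difference of -1.11 was -1.48 to -0.77 with 1 left out, -0.11 without sham replicates 2 and 3, and -0.12 without adrenalectomy replicate 1 as well. Without sham replicates 2 and 3, 8 members changed sign (Krt5, Krt14, Trp63, Sprr1a, Tnnt1, Myl1, Neb and Pvalb), and 22 of 41 differences moved by more than 1 SD; the former samples carry the selection. Also, Dsc2 changed sign without sham replicate 4 and Krt14 without adrenalectomy replicate 3. With the added setting Krt5, Krt14, Trp63, Tnnt1 and Acta1 changed sign. The cause was not tested beyond the samples left out.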

Other observations

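The mean log2 value over 15 parietal cell genes was 14.31 to 14.47 and over 12 chief cell genes 13.21 to 13.56. The mean over 9 mucous neck cell genes was 12.53, 12.09, 12.19 and 11.98 in the sham samples and 12.34, 12.37, 12.42 and 12.29 after adrenalectomy, and over 12 surface mucous genes 17.53, 17.27, 17.32 and 17.25, and 17.32, 17.35, 17.46 and 17.38. In both mucous lists sham replicate 1 was highest and sham replicate 4 lowest, an order unlike that of the squamous genes. Single glandular genes varied more than these means: Gkn3 ranged from 12.30 to 14.23, Chia1 from 18.51 to 20.36 and Pga5 from 12.39 to 13.77.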
